A study of Mus musculus with 40 samples.

Results

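Wild-type Bmal1 (WT-Bmal1) was compared with an empty vector (EV) in YUMM2.1 cells, in 4 of the 40 libraries of the series. YUMM2.1 is a mouse melanoma line from a tumor whose alleles include mutant Braf, loss of a copy of Cdkn2a and a stabilized beta-catenin, and these libraries are from cells that kept their own Bmal1. The cells were transduced with lentivirus carrying EV or WT-Bmal1 and cultured as stable populations, with 2 libraries per group titled EV.1, EV.2, WT.1 and WT.2. RNA was profiled by QuantSeq, which reads polyadenylated transcripts from their 3′ end, and longer transcripts therefore give no more counts. A further pair of YUMM2.1 libraries, dHLH.1 and dHLH.2, carried a Bmal1 that lacks the DNA binding helix-loop-helix region (dHLH-Bmal1), and these entered the same model to share its estimate of the spread. The study calls the duplicates biological replicates, and the labels do not say that they came from separate transductions, so p-values here measure the spread between these libraries, which may be technical.

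The members were chosen by their column names and read in 2 ways. In the first reading, as labelled, EV.1 and EV.2 were YUMM2.1-EV, and WT.1 and WT.2 were YUMM2.1-WT. In the second, exchanged, the library titled WT.1 was counted as EV and the library titled EV.2 as WT. The exchange was made because the normalised values that accompany the study give these libraries each other's name. It also places both libraries numbered 1 in EV and both numbered 2 in WT. After the exchange, a difference between WT and EV and a difference between the libraries numbered 2 and those numbered 1 cannot be told apart from these 4 libraries alone.

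Bmal1, listed under its symbol Arntl, pairs with Clock and binds E-box sequences to drive the genes of the circadian clock, among them Dbp and the REV-ERB repressors Nr1d1 and Nr1d2, which act back on the loop. Melanoma cells range between a melanocytic state, marked by the neural crest factor Sox10, and a mesenchymal state with Sox9, extracellular matrix and receptors such as Axl. The comparison asks what added WT-Bmal1 does to the transcriptome of cells whose clock is intact.

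The 4 libraries held 9097676 to 11356803 counts, within the range of 3643332 to 22970049 over the series. The libraries numbered 1 were the deeper ones, with totals of 11356803 for EV.1 and 11341422 for WT.1, against 9097676 for EV.2 and 9845547 for WT.2. The melanocyte markers summed to 449.5 to 559.2 CPM (counts scaled to library size, with TMM factors) in the 4 libraries. Most of each sum was Sox10, at 504, 542, 484 and 432 CPM in EV.1, WT.1, EV.2 and WT.2. Of the 7 markers, 3 defining members, Tyrp1, Dct and Mlana, were at 0 in all 6 YUMM2.1 libraries. The leukocyte markers summed to at most 0.3235 CPM in any of the 6, with Cd3e, Adgre1 and Cd14 at 0. The keratinocyte markers summed to 1.294 to 5.429 CPM and the endothelial markers to 8.518 to 11.66 CPM in the 4 libraries. The 5 fibroblast markers summed to 7.35 CPM in EV.1, 8.907 in WT.1, 20.27 in EV.2 and 19.64 in WT.2, with Thy1 at 0. Their sum was thus low in both libraries numbered 1 and higher in both numbered 2, and it was 257.9 and 237.1 CPM in the dHLH libraries. Most of it in each library was Col1a1, a gene described below, at 6.10, 7.19, 16.5 and 16.3 CPM in EV.1, WT.1, EV.2 and WT.2. The part of other cells in any result was not tested.

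The titles did not group the libraries by likeness. Among genes at 10 CPM or more, 0.207% differed more than 2-fold between EV.1 and WT.1, and 0.15% between EV.2 and WT.2. The libraries of one title group differed more, with 2.56% of such genes over 2-fold between EV.1 and EV.2 and 0.576% between WT.1 and WT.2. The remaining pairs, EV.1 with WT.2 and EV.2 with WT.1, differed at 1.48% and 0.946%. No pair was a repeat of one library, since the mean chi-square of the counts per gene was 4.162 in the closest pair, where counting noise alone gives about 1.

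**Figure D1:**
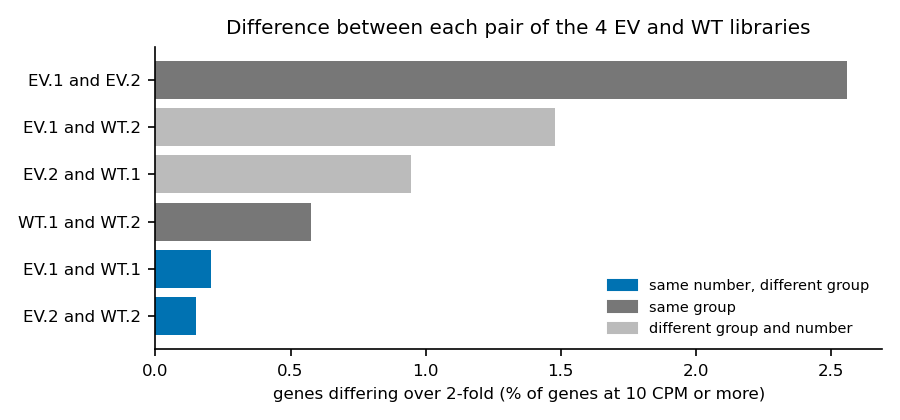
Share of genes at 10 CPM or more that differed over 2-fold between each pair of the 4 EV and WT libraries, in percent, with bars colored by whether the pair shares a group, a number or neither. The pairs with a shared number, at 0.15% and 0.207%, lie below both pairs with a shared group, at 0.576% and 2.56%.

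As labelled, no gene separated YUMM2.1-WT from YUMM2.1-EV. Of 14323 genes tested, 0 had an adjusted p under 0.05 by the edgeR quasi-likelihood test, adjusted by Benjamini and Hochberg (0%), and 98 had an unadjusted p under 0.05, which is 0.684%. DESeq2's Wald test called 1 gene, Gm29253, lower in WT. A model without a filter on low counts called 24. Libraries of WT lay above both EV libraries for 10.6% of genes and below both for 9.86%. The biological coefficient of variation was 0.199 as labelled and 0.144 with the libraries exchanged.

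The genes with the lowest p in this reading were mostly low or listed at 0 in one group, and none passed. Gm14036, a processed pseudogene, had 0 counts in both EV libraries, 207 in WT.1 and 65 in WT.2, at least 42.2-fold higher in WT against 3 counts per library. Hist1h2ap, a histone H2A gene with near-identical copies, had 205 counts in EV.1, 617 in EV.2 and 0 in both WT libraries, at least 150-fold lower in WT. The adjusted p was 1 for both. Both were also at 0 in both dHLH libraries. In the aC3 clone described below, Gm14036 was at 0 CPM in both EV libraries and at 10.7 and 23.3 CPM in WT, called higher. It was at 0 in the control-hairpin EV and WT libraries described below. Hist1h2ap varied within pairs there, at 48.9 and 22.2 CPM in EV and 81.5 and 23.6 CPM in WT. In aC3 it was at 0 and 19.4 CPM in EV and at 0 and 43.0 CPM in WT. In the YUMM1.7 line it was at 0 and 19.1 CPM in EV and at 0 and 54.0 CPM in WT. Gm29253 and Gm20605 were at 0 in WT.1 and WT.2 as well, at least 14.6-fold and 9.29-fold lower. Their sums were 80 and 56 counts in EV.1 and EV.2, and both overlap other genes. Olfr975, an olfactory receptor gene, had 7 and 5 counts in EV and 35 and 21 in WT, a log2 fold change of 2.16 (SE 0.47, adjusted p = 1). Snx20, a sorting nexin, was at 0.835 and 0.863 CPM in EV and at 2.14 and 2.29 CPM in WT. Abca5, an ABC transporter, was at 4.76 and 5.61 CPM in EV and at 2.91 and 2.79 CPM in WT, a log2 fold change of -0.86 (SE 0.26, adjusted p = 1). Gm42428, Gm37019 and Ugt1a7c completed the set, with log2 fold changes of 4.28, 0.65 and -1.50. The groups do not overlap for these genes because the rule that names them requires it.

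With EV.2 and WT.1 exchanged, the comparison gave 101 genes, nearly all higher in WT. Of the 14323 genes tested, 97 rose in WT (0.677%) and 4 fell (0.0279%) by the same test, 0.705% in all, and 1772 (12.4%) had an unadjusted p under 0.05. Among the 97, 80 were at least 2-fold and 34 at least 4-fold higher, 90 were protein coding and 4 were pseudogenes. The EV and WT libraries did not overlap for any of the 101, and over all genes WT lay above both EV libraries for 27.3% and below both for 26.3%. The median log2 fold change of all genes was 0.0044.

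The size of this list depended on the model. Fitting the EV and WT libraries without dHLH called 1391 genes, 696 higher and 695 lower, a near-even split where the 6-library model gave 97 and 4. Leaving out 1 of the 4 libraries left 6 to 19 calls: 19 without EV.1, 7 without EV.2, 6 without WT.1 and 12 without WT.2. The lone library of a group was then assumed to vary like the other groups. Calls in all 4 of those fits were shared by 5 genes, Cdh13, Dkk2, Fstl1, Sema3a and Sox9, of which Cdh13, Dkk2 and Sema3a were named after their values were seen. Dkk2, a secreted modulator of Wnt signaling, was at 2.26 CPM in EV.1, 2.23 in WT.1, 16.4 in EV.2 and 16.2 in WT.2, a log2 fold change of 2.86 exchanged (SE 0.17, adjusted p = 0.0010). Cdh13, which encodes T-cadherin, was at 9.94, 11.8, 43.7 and 41.3 CPM in that order (log2 fold change 1.96). Sema3a, a secreted semaphorin that guides axons, was at 15.7, 17.3, 49.2 and 48.5 CPM (log2 fold change 1.57). In each of the 3 the libraries numbered 2 lay above those numbered 1 by more than either pair differed within itself. Such a gap is what the calls that picked them rest on, so it is no separate evidence.

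**Figure D2:**
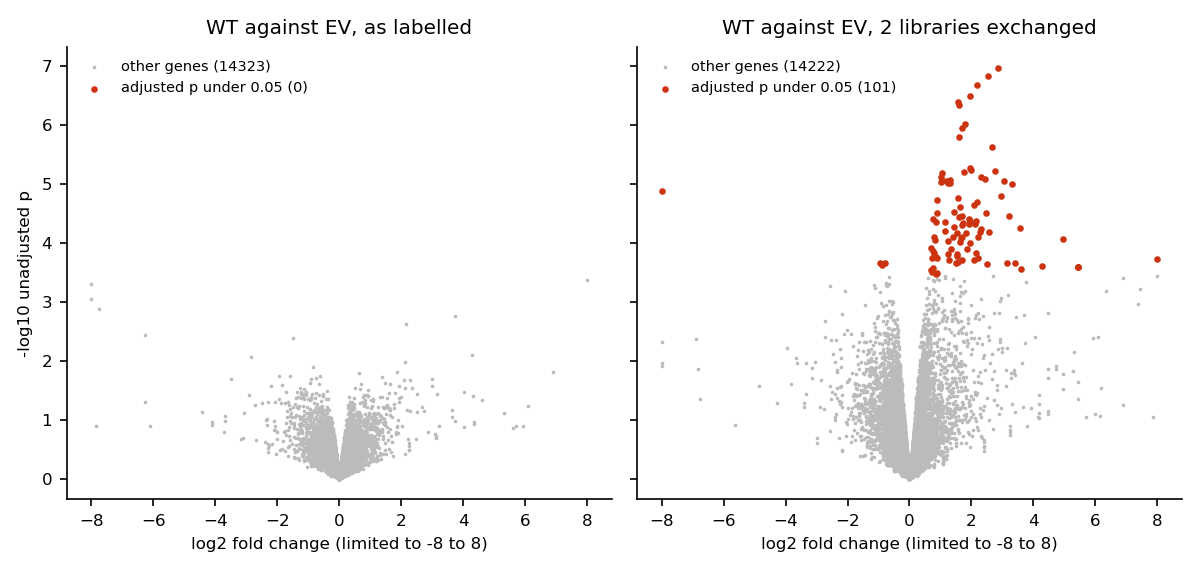
Log2 fold change (x axis, limited to -8 to 8) and -log10 unadjusted p (y axis) of 14323 genes for WT against EV in YUMM2.1, as labelled (left) and with EV.2 and WT.1 exchanged (right), each point a gene and red points past an adjusted p of 0.05. Red points number 0 on the left and 101 on the right, where 97 lie above 0.

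The genes that the study names for the mesenchymal state were the clearest group. The study chose these 9 on these samples, so they are not independent evidence of a direction. As labelled, 0 of 9 passed, with a median log2 fold change of -0.04. That median turned with the library left out, at -0.50 without EV.1, 0.63 without EV.2, 0.55 without WT.1 and -0.65 without WT.2. Exchanged, 6 of 9 were higher and 0 lower, with a median of 1.30, beside 0.0044 for all genes. With any 1 of the 4 libraries left out, 1 of the 9 was called, Sox9, and the median was 1.09 to 1.29. Sox9, Fn1, Col1a1, Prrx2, Klf4 and Lmo1 passed, and Axl, Snai2 and Twist2 did not.

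Sox9 (chromosome 11, 112782224 to 112787760, mm10), a transcription factor of neural crest and cartilage, was at 18.5 CPM in EV.1, 19.7 in WT.1, 87.2 in EV.2 and 86.1 in WT.2. The 4 libraries thus fell into pairs by their number and not by their title. As labelled, EV was at 52.8 ± 48.6 and WT at 52.9 ± 47.0 CPM (SD, n = 2), with a log2 fold change of 0.006 (SE 0.80, adjusted p = 1). Exchanged, EV was at 19.1 ± 0.88 and WT at 86.7 ± 0.77 CPM, with a log2 fold change of 2.18 (SE 0.15, adjusted p = 0.0010). Sox9 passed under all 11 other settings tried for this reading. The dHLH libraries were at 211 and 272 CPM, above all 4.

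Fn1 (chromosome 1, 71585520 to 71653200), which encodes the matrix glycoprotein fibronectin, was at 145 CPM in EV.1, 139 in WT.1, 292 in EV.2 and 282 in WT.2. The log2 fold change was -0.05 as labelled and 1.01 exchanged (SE 0.11, adjusted p = 0.0057). Col1a1 (chromosome 11, 94936224 to 94953042), the alpha-1 chain of type I collagen, was at 6.10, 7.19, 16.5 and 16.3 CPM in EV.1, WT.1, EV.2 and WT.2. It was 1.30 higher exchanged on the log2 scale (SE 0.14, adjusted p = 0.0057), and at 251 and 233 CPM in the dHLH libraries. Both genes showed the same pairing of libraries as Sox9.

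Klf4 (chromosome 4, 55527143 to 55532466), a Kruppel-like transcription factor, was at 32.7 and 35.1 CPM in EV.1 and WT.1 and at 72.6 and 67.2 CPM in EV.2 and WT.2. Its log2 fold change was -0.04 as labelled and 1.04 exchanged (SE 0.11, adjusted p = 0.0057). Prrx2 (chromosome 2, 30834972 to 30881251), a homeobox factor of mesenchyme, was low, at 0.668 and 0.942 CPM in EV.1 and WT.1 and at 3.88 and 4.19 CPM in EV.2 and WT.2. Its log2 fold change exchanged was 2.31 (SE 0.32, adjusted p = 0.016). Lmo1 (chromosome 7, 109138572 to 109175207), a LIM domain protein, rested on few reads, with 1 count each in EV.1 and WT.1, 12 in EV.2 and 24 in WT.2. The ratio exchanged was 22-fold (exact 95% interval 5.68 to 189, for counting error only), with an adjusted p of 0.038.

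The other 3 genes of this list were higher in EV.2 and WT.2 without passing. Axl, a receptor tyrosine kinase, was at 384 and 400 CPM in EV.1 and WT.1 and at 568 and 522 CPM in EV.2 and WT.2, a log2 fold change of 0.48 exchanged (SE 0.14, adjusted p = 0.23). Snai2, an EMT factor of the Snail family, was at 10.8, 8.82, 14.3 and 15.7 CPM in EV.1, WT.1, EV.2 and WT.2 (log2 fold change 0.61, adjusted p = 0.34). Twist2, a basic helix-loop-helix EMT factor, was at 2.59, 0.856, 4.1 and 4.88 CPM in the same order (log2 fold change 1.37, adjusted p = 0.29). For Twist2 the 2 libraries numbered 1 themselves stood apart, at 31 and 10 counts.

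**Figure D3:**
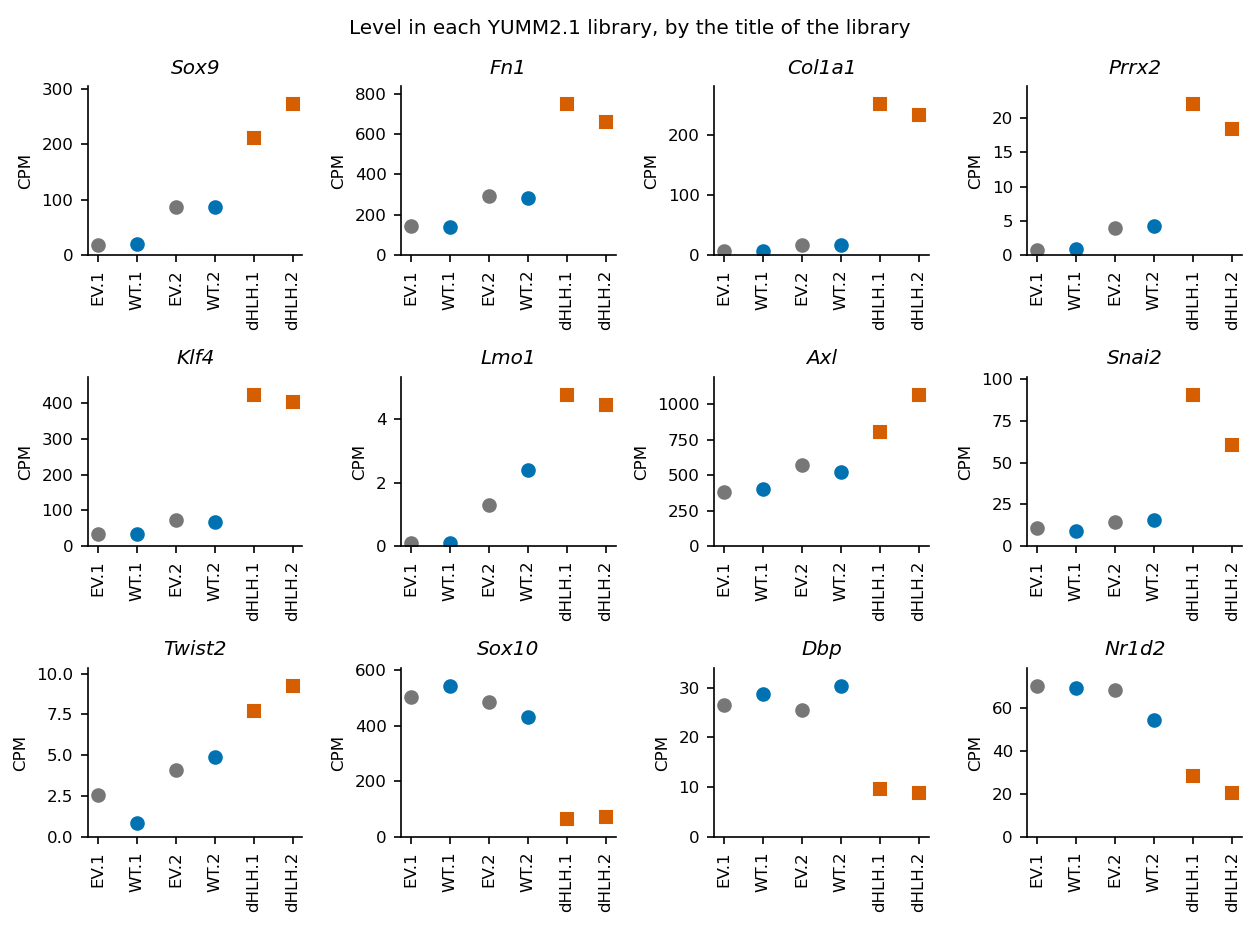
CPM (y axis, from 0) in each of the 6 YUMM2.1 libraries by title, with EV in grey, WT in blue and dHLH in orange, for the 9 mesenchymal genes the study names, Sox10, Dbp and Nr1d2. Sox9 sits at 18.5 and 19.7 CPM in EV.1 and WT.1 and at 87.2 and 86.1 CPM in EV.2 and WT.2, while Sox10 is between 432 and 542 CPM in all 4.

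Sox10, the neural crest factor that marks the melanocytic state, did not pass in either reading. It was at 504 CPM in EV.1, 542 in WT.1, 484 in EV.2 and 432 in WT.2. Its log2 fold change was -0.02 as labelled (SE 0.15, adjusted p = 1) and -0.19 exchanged (SE 0.11, adjusted p = 0.49). In dHLH it was at 66.5 and 73.5 CPM, below all 4 libraries.

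Clock genes did not pass in either reading. Of 30 clock genes listed, 27 were tested and 0 were called as labelled or exchanged, with medians of -0.05 and 0.05. Arntl (chromosome 7, 113207465 to 113314126) had 192 counts in EV.1, 129 in EV.2, 163 in WT.1 and 183 in WT.2. Its log2 fold change was 0.10 in both readings (adjusted p = 1 and 0.88). Whether transcripts of the construct are counted under Arntl is not given in the sources used here, so its counts do not check the labels. Clock was at 52.3 to 54.9 CPM in the 4 libraries. Dbp, a PAR bZIP output factor of the clock, was at 26.6 and 25.6 CPM in EV.1 and EV.2 and at 28.7 and 30.3 CPM in WT.1 and WT.2, so that the groups as labelled did not overlap (log2 fold change 0.18, SE 0.16, adjusted p = 1). Exchanged, its log2 fold change was 0.02 (SE 0.15, adjusted p = 0.97). Nr1d1 was at 15.1, 12.8, 20.7 and 18.7 CPM in EV.1, WT.1, EV.2 and WT.2, with log2 fold changes of -0.18 as labelled (SE 0.29, adjusted p = 1) and 0.50 exchanged (SE 0.21, adjusted p = 0.40). Nr1d2 was at 70.4, 69.5, 68.7 and 54.6 CPM in that order, with log2 fold changes of -0.16 and -0.18 (adjusted p = 1 and 0.67). Dbp, Nr1d1 and Nr1d2 were lower in the dHLH libraries. Dbp was at 9.60 and 8.75 CPM there, Nr1d1 at 3.23 and 4.79 CPM and Nr1d2 at 28.3 and 20.6 CPM. Arntl was higher in dHLH, at 51.3 and 35.7 CPM against 13.9 to 18.2 CPM in the 4 libraries. Its log2 fold change of dHLH over EV was 1.54 in both readings (adjusted p = 0.0095 and 0.0010). The part of construct reads in that rise was not tested. Clock was at 60.1 and 57.1 CPM in dHLH and did not pass against EV (adjusted p = 0.58 and 0.32).

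Of a wider list of 81 mesenchymal and matrix genes, 68 were tested. As labelled 0 were called, and exchanged 4 were higher and 0 lower (5.88%, against 0.677% of all genes), with a median log2 fold change of 0.11. The 4 were Fstl1, Inhba, Bgn and Mgp. Fstl1 (chromosome 16, 37776873 to 37836514), a secreted follistatin-like glycoprotein, was at 3.76 CPM in EV.1, 5.14 in WT.1, 24.8 in EV.2 and 26.3 in WT.2, a log2 fold change of 2.52 exchanged (SE 0.16, adjusted p = 0.0010). It passed under all 11 other settings and was at 280 and 300 CPM in dHLH. Inhba (chromosome 13, 16011851 to 16031621), which encodes the beta-A subunit of activin, was at 3.34, 3.51, 12.2 and 11 CPM in EV.1, WT.1, EV.2 and WT.2, a log2 fold change of 1.75 (SE 0.18, adjusted p = 0.0057).

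Bgn and Mgp encode the matrix proteins biglycan and matrix Gla protein. Bgn (chromosome X, 73483602 to 73495933) was at 45.6, 48.3, 115 and 106 CPM in EV.1, WT.1, EV.2 and WT.2, a log2 fold change of 1.23 exchanged (SE 0.13, adjusted p = 0.0057). Mgp (chromosome 6, 136872435 to 136875823) was at 6.68, 8.22, 21 and 23.9 CPM, a log2 fold change of 1.59 (SE 0.20, adjusted p = 0.014). Unlike the other 3, Mgp was below EV.2 and WT.2 in the dHLH libraries, at 3.90 and 3.84 CPM.

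Targets of MRTF and SRF, the actin-regulated transcription factors, numbered 49 tested of 58. Exchanged, 2 were higher and 0 lower (4.08%, against 0.677% of all genes higher), with a median of 0.14. Ankrd1 (chromosome 19, 36111961 to 36120099), a nuclear ankyrin repeat protein, was at 0.418 and 0.257 CPM in EV.1 and WT.1 and at 2.48 and 3.99 CPM in EV.2 and WT.2, a log2 fold change of 3.22 (SE 0.41, adjusted p = 0.014). Tgfb1i1 (chromosome 7, 128246812 to 128255699), the focal adhesion protein Hic-5, was at 4.01, 2.31, 10.1 and 10.3 CPM in EV.1, WT.1, EV.2 and WT.2, a log2 fold change of 1.68 (SE 0.24, adjusted p = 0.019). Among the 6 YUMM2.1 libraries without a hairpin, both were highest in dHLH, at 50.5 and 45.1 CPM for Ankrd1 and at 61.2 and 61.3 CPM for Tgfb1i1.

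Of 59 hypoxia genes tested, Egln3 alone was called, higher exchanged (1.69%, against 0.677% of all genes). Egln3 (chromosome 12, 54178981 to 54203860), a prolyl hydroxylase that acts on HIF, was at 3.26 and 2.91 CPM in EV.1 and WT.1 and at 9.92 and 9.27 CPM in EV.2 and WT.2, a log2 fold change of 1.63 (SE 0.20, adjusted p = 0.011). The median of the list was 0.02. With any 1 of the 4 libraries left out, Fstl1 was the 1 call left on the wider mesenchymal list and Egln3 was not called, and of the MRTF-SRF targets 1 was called without EV.1 and 0 without any of the others. No member was called in the 26 melanocytic genes, 18 AP-1 genes, 19 secreted cytokines, 29 interferon and MHC genes, 51 cell cycle genes or 31 sterol genes tested, in either reading. Their medians exchanged were -0.002, 0.11, 0.18, -0.22, -0.02 and -0.16. The interferon and MHC list and the sterol list lay mostly below 0, with 21 of 29 and 23 of 31 members. Of all genes, 50.6% lay above 0, and none of those list members passed in the 6-library model. Other models called some. Exchanged, DESeq2's Wald test called 6 melanocytic and 2 sterol genes lower, among 58 lower genes in all. The fit of the 4 EV and WT libraries alone called 7 of each lower and 2 melanocytic genes higher. It called 695 genes lower and 696 higher in all, among them members of the other lists.

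**Figure D4:**
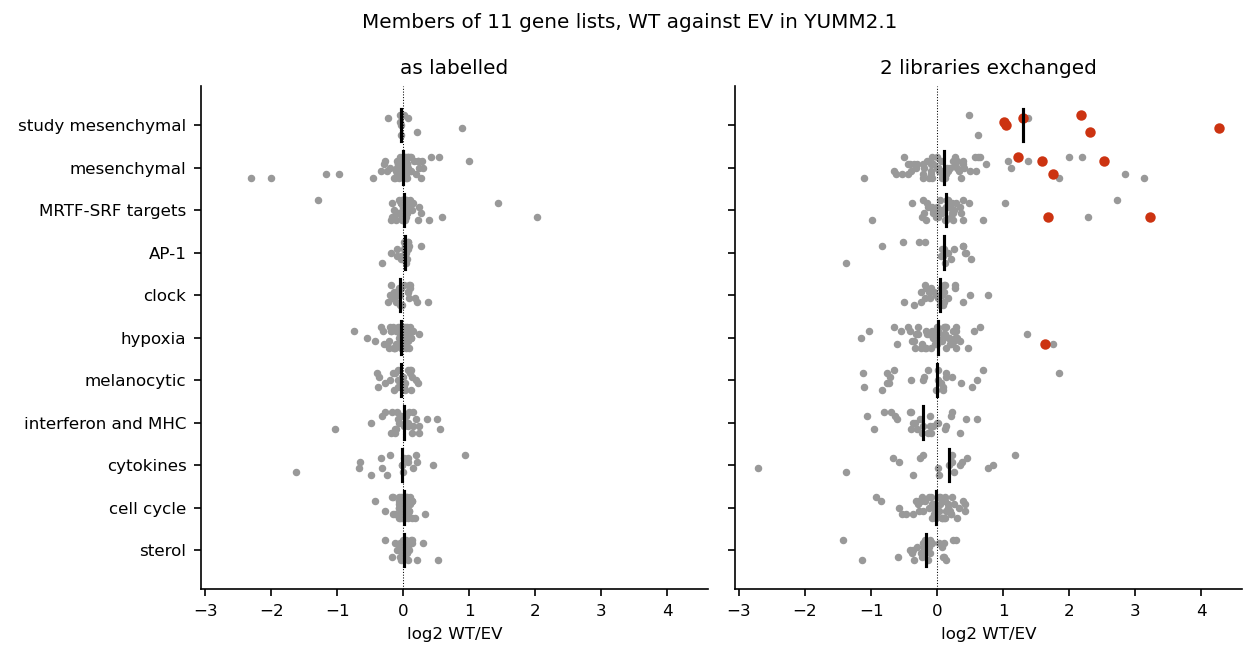
Log2 fold change of WT over EV (x axis, the same scale in both panels) for each tested member of 11 gene lists (rows), as labelled (left) and exchanged (right), with red points past an adjusted p of 0.05 and black bars at the list's median. Red points are absent on the left, and on the right 6 lie in the study's mesenchymal list, 4 in the wider mesenchymal list, 2 among MRTF-SRF targets and 1 among hypoxia genes.

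The genes with the largest rise exchanged were mostly close to 0 in EV.1 and WT.1. Gm5446, a processed pseudogene, had 0 counts in EV.1 and WT.1, 23 in EV.2 and 37 in WT.2, at least 12.2-fold higher against 3 counts per library. Rps12-ps17, Rps12-ps18 and Rps12-ps6, pseudogenes of a ribosomal protein on chromosome X, had identical counts of 0, 1, 18 and 28 in EV.1, WT.1, EV.2 and WT.2. RSEM divides reads among such near-identical copies, so they stand for 1 uncertain measurement (56.3-fold, exact 95% interval 9.62 to 2270). Slpi, a secreted inhibitor of leukocyte proteases, had 1 count in each of EV.1 and WT.1, 23 in EV.2 and 35 in WT.2, a ratio of 35.5 (exact 95% interval 9.4 to 300.3, adjusted p = 0.020). These genes carry large ratios on few reads.

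Elavl4, a neuronal RNA binding protein, had more reads, with 6 and 12 counts in EV.1 and WT.1 and 81 and 68 in EV.2 and WT.2, a log2 fold change of 3.33 (SE 0.36, adjusted p = 0.0057). Ly6e, a GPI-anchored surface protein, had 2, 3, 21 and 30 counts in EV.1, WT.1, EV.2 and WT.2, a log2 fold change of 3.56 (SE 0.49, adjusted p = 0.016). Mapk10, the kinase JNK3, had 3, 1, 21 and 21 counts in that order, and Fendrr, a long noncoding RNA next to Foxf1, had 2, 2, 16 and 21. Their log2 fold changes were 3.60 and 3.41 (adjusted p = 0.042 and 0.036). Slpi was at 0.380 and 0.360 CPM in the dHLH libraries, below the 2.48 and 3.49 CPM of EV.2 and WT.2. Gm5446, at 0.760 and 1.80 CPM in dHLH, and each Rps12 pseudogene, at 0.665 and 0.959 CPM, were also below their levels in EV.2 and WT.2. Elavl4, Ly6e, Mapk10 and Fendrr were all above theirs in dHLH.

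Promoters are shown for the genes of that set with the motifs of the factors named above: the canonical E-box CACGTG bound by Bmal1 and Clock, and the CArG box bound by SRF (CC, then 6 of A or T, then GG). The AP-1 motif TGANTCA was searched too. The RefSeq windows of GRCm38.p6 run from 250 bases before to 50 after a start, and 5 of the 10 genes had any. The Slpi window (chr2:164356458-164356757, minus strand) held the E-box at -146 to -141 from the start, in capitals. An Elavl4 window (chr4:110287478-110287777, minus strand) held the CArG box at -30 to -21, in capitals. The Ankrd1 window (chr19:36119795-36120094, minus strand), shown because Ankrd1 is on the MRTF-SRF list, held none of the 3 motifs.
Slpi: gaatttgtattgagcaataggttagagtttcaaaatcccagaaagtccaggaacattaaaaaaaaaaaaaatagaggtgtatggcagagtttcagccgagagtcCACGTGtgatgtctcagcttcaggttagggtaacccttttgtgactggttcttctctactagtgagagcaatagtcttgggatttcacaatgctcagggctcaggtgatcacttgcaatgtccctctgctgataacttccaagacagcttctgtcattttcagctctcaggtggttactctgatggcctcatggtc
Elavl4: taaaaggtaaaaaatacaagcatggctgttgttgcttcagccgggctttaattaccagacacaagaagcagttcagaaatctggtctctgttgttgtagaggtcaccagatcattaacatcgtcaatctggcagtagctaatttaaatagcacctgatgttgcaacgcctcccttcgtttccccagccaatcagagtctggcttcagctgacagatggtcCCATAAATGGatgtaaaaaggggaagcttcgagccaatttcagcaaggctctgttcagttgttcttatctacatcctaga
Ankrd1: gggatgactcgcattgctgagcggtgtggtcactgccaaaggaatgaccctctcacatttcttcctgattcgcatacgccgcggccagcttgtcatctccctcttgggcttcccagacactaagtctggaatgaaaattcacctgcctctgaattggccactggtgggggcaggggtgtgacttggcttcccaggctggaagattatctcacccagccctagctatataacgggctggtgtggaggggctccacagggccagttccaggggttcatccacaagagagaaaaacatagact

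Over all 32851 promoter windows, 7.15% held the E-box, 7.81% the AP-1 motif and 1.63% the CArG box, matched on both strands. Counted by gene, as in the shares that follow, these were 8.09%, 8.97% and 1.81%. Of the 97 genes that rose, 62 had a window, too few for the shares of the group to be read as those of its members, and 5, 6 and 2 of these held the 3 motifs (8.06%, 9.68% and 3.23%). Of the 9877 genes tested that had a window, 11.8% held the E-box, 6.24% the AP-1 motif and 1.65% the CArG box. The E-box was in the windows of Slpi, Klf4, Runx1, Sgms2 and AA467197, the last 3 named after the search. Such a match is a description and not a bound site.

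The 4 genes that fell exchanged were Gm28988, Adam23, Tmod2 and Pmp2. Gm28988, an antisense transcript that overlaps Ipo11, had 113 counts in EV.1, 93 in WT.1 and 0 in EV.2, WT.2 and both dHLH libraries, at least 28-fold lower in WT against 3 counts per library (adjusted p = 0.0073). It cannot be told from reads of its overlapping gene, since the strand of counting is not given in the sources used here. Adam23, a cell surface protein of the ADAM family, was at 36.0, 37.4, 18.7 and 19.4 CPM in EV.1, WT.1, EV.2 and WT.2, a log2 fold change of -0.95 (SE 0.15, adjusted p = 0.036). Tmod2, an actin capping tropomodulin, was at 53.0, 58.8, 32.7 and 31.7 CPM, a log2 fold change of -0.80 (SE 0.13, adjusted p = 0.036). Pmp2, a myelin fatty acid binding protein, was at 56.0, 62.2, 32.3 and 31.7 CPM, a log2 fold change of -0.88 (SE 0.15, adjusted p = 0.038). Adam23, Tmod2 and Pmp2 were lower again in the dHLH libraries, at most 2.64, 5.87 and 7.13 CPM. Sash1, a scaffold protein, was next by p without passing, at 75.1, 68.7, 45.3 and 45.2 CPM (adjusted p = 0.051). All 5 overlap other annotated genes, as do Fn1, Lmo1, Inhba, Slpi, Mapk10, Fendrr, Arntl, Clock, Dbp, Nr1d1, Twist2, Cdh13 and Sema3a, and 52 of the 97 that rose.

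Since the exchange sorts the 4 libraries by number, the 97 genes were read by number in groups that it leaves alone. In the dHLH libraries of YUMM2.1, 60 of the 97 were higher in library 2 than in library 1 (61.9%, against 51.3% of all genes), with a median log2 ratio of 0.09. In the control-hairpin libraries described next, it was 53 of 97 in EV, 59 in WT and 53 in dHLH (54.6%, 60.8% and 54.6%, against 49.4%, 49.2% and 49.8% of all genes), with medians of 0.02, 0.05 and 0.009. In aC3 it was 44 of 97 in EV and 43 in WT (45.4% and 44.3%, against 51.9% and 49.6% of all genes). In YUMM1.7 it was 45 in EV and 51 in WT (46.4% and 52.6%, against 48.4% and 47.9% of all genes).

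The same WT-Bmal1 and EV lines were also sequenced after addition of a control hairpin (shNC), in 2 libraries per group that do not enter the fits above. These libraries are separate from the 4, although the cells derive from the same transduced lines. There WT against EV gave 3308 of 14848 genes tested (22.3%), 1732 higher (11.7%) and 1576 lower (10.6%). Of the 97 genes that rose exchanged, 89 had a log2 fold change above 0 with shNC, 82 were called higher and 1, Ninj1, lower, with a median of 1.81 beside 0.02 for all genes. Of the 4 that fell, all 4 were below 0 and Gm28988 was called. Ninj1, an adhesion protein of nerve injury, was named after its values were seen. It was at 41.8 and 51.0 CPM in EV.1 and WT.1 and at 76.7 and 90.9 in EV.2 and WT.2, with a log2 fold change of -0.98 with shNC (SE 0.13, adjusted p = 3.5e-05). As labelled, 48 of the 97 were above 0, with a median of -0.005.

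**Figure D5:**
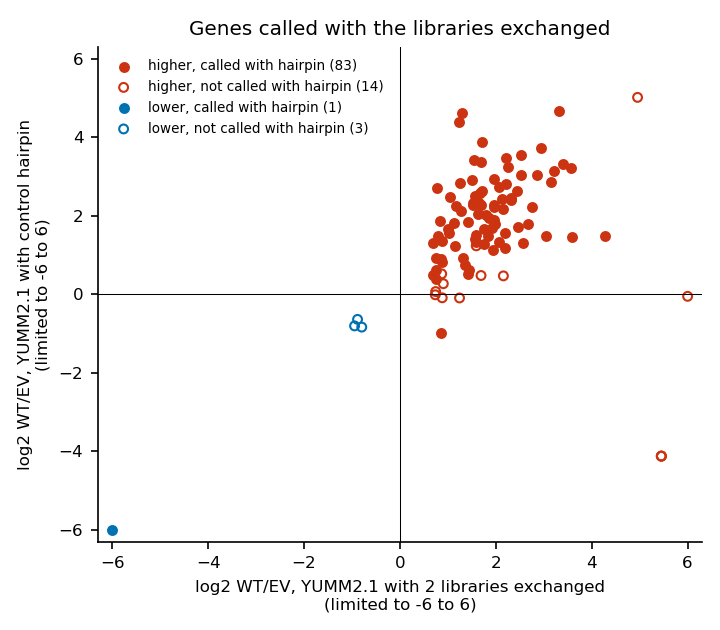
Log2 fold change of WT over EV with the libraries exchanged (x axis) and in the control-hairpin libraries (y axis), both limited to -6 to 6, for the 101 genes called exchanged, filled where also called with the hairpin. Of the 97 genes to the right of 0, 89 lie above 0 and 82 of them were called higher with the hairpin.

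All 9 of the study's mesenchymal genes were called higher with shNC, where 11.7% of all genes were. Exchanged, all 9 lay above 0 and 6 were called, where 0.677% of all genes were called higher. Sox9 was at 113 ± 2.39 CPM in EV and 333 ± 33.3 in WT with shNC, a log2 fold change of 1.56 (SE 0.11, adjusted p = 1.4e-08), where 2.18 was seen exchanged. Col1a1 was at 1.93 ± 0.19 and 47.5 ± 0.10 CPM, a log2 fold change of 4.61. Klf4 was at 97.1 ± 5.10 and 538 ± 3.65 CPM, a log2 fold change of 2.47. Sox10, which did not pass in the 4 libraries, was at 322 ± 2.68 and 96.5 ± 0.36 CPM with shNC, a log2 fold change of -1.74 (SE 0.11, adjusted p = 4.3e-09). Levels set across these fits were scaled separately.

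The WT effect was tested against that with shNC in 1 model of 16 libraries and 15251 genes. Exchanged, the effects differed for 2284 genes (15%), and as labelled for 1969 (12.9%), which became 1179 without WT.1 and 3358 without EV.1. Among named genes exchanged, Sox9 rose more in the 4 libraries than with shNC (difference of log2 fold changes 0.61, SE 0.13, adjusted p = 0.0029). Col1a1 rose less (-3.32, SE 0.29, adjusted p = 2.6e-07), as did Klf4 (-1.44) and Fn1 (-0.66). For Snai2 and Axl, which did not pass in the 4 libraries, the differences were -1.20 and -0.31 and passed. For Bgn the difference was -3.18 (SE 0.19, adjusted p = 1.3e-09) and for Fstl1 it was -1.04 (SE 0.20, adjusted p = 0.0016). For Inhba, Ankrd1, Egln3 and Prrx2 the difference did not pass, with values of 0.45, 0.06, -0.42 and -0.10 (SE 0.25, 0.50, 0.32 and 0.40). Sox10 differed by 1.53 (SE 0.11, adjusted p = 2.5e-08). Dbp and Nr1d2, which rose with shNC by 1.08 and 0.87, differed by -1.08 and -1.06 (adjusted p = 0.016 and 1.0e-04).

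The aC3 clone of YUMM2.1 has its own Bmal1 knocked out, so WT-Bmal1 against EV there is a restoration, from a line that is 1 clone. It gave 1694 of 15251 genes in the same model (11.1%), 750 higher (4.92%) and 944 lower (6.19%). Of the 97 genes that rose exchanged, 22 were called higher and 5 lower in aC3, with a median of 0.50. Adam23, Tmod2 and Pmp2, which fell exchanged, were called higher in aC3, with log2 fold changes of 1.01, 1.02 and 1.05. Clock outputs, which did not pass in the 4 libraries, were higher in aC3. Dbp had a log2 fold change of 2.55 there, Nr1d1 of 2.58 and Nr1d2 of 1.58. The exchanged effect minus that in aC3 was -2.53, -2.08 and -1.76 (adjusted p = 1.0e-05, 1.0e-04 and 8.9e-07). Arntl was lower with WT in aC3, at 33.5 and 31.1 CPM in EV and 18.5 and 17.8 CPM in WT (log2 fold change -0.83, adjusted p = 8.1e-04). Its log2 fold change was 0.68 in YUMM1.7 and 0.27 with shNC, and neither passed. The part of construct reads in these counts was not tested. The exchanged effect of Sox9 was larger than in aC3 by 0.84 (SE 0.20, adjusted p = 0.011). Over all genes the effects differed for 1855 exchanged (12.2%) and for 48 as labelled (0.315%), 15 higher and 33 lower with TMM and 25 higher and 34 lower with DESeq2's size factors. The count as labelled and its split turned on single libraries, with 178 higher and 71 lower without EV.1, 184 and 101 without EV.2, 40 and 37 without WT.1, and 6 and 25 without WT.2. In YUMM1.7, a melanoma line that is not derived from YUMM2.1, 1 gene, Dlk1, was called in that model (0.00656%), lower in WT, and 0 were higher (0%). Of the 97 genes, 45 were above 0 and 0 were called.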

How the data were processed

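Cultured mouse melanoma cells were profiled by QuantSeq 3′ RNA sequencing, with 75 bp reads from 100 ng of RNA. The authors used bowtie2 against mm10 and RSEM (version 1.2.3 per the submitters' processing notes) for alignment and estimation, and deposited whole-number counts per gene without normalization. The strand of counting is not given in the sources used here. Symbols and positions are from GENCODE M21 of GRCm38, and 99.63% of 51789 identifiers had a symbol. Library totals were 9097676 to 11356803, so 1 CPM rests on about 10 counts.

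Libraries were grouped by their labels, and again with WT.1 and EV.2 exchanged. The 6 YUMM2.1 libraries were fitted in edgeR 4.0.16 under R 4.3.3 (TMM, filterByExpr, quasi-likelihood F test) with calls where the p adjusted by Benjamini and Hochberg was under 0.05. The 18 hairpin libraries, and 16 EV and WT libraries for differences of effects, were fitted likewise. The SE is that of the log2 fold change. A permutation of 2 against 2 libraries cannot give a two-sided p under 0.333, so none was run. A group at 0 was given a bound against 3 counts per library, and a group at 1 to 3 counts an exact binomial interval at 95%, both for counting error only. Scripts were tested on simulated data.

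Genes named are Arntl, Clock, those the study names for these cells, listed genes that passed, and, in each reading and direction, the 10 largest log2 fold changes among passing genes whose groups did not overlap and whose mean was 10 counts or more, or, where fewer passed, those plus the lowest p up to 5. Members, lists and tests were chosen with earlier results of these data known. Alternatives were DESeq2's size factors, DESeq2 1.42.0's Wald test, other filters, other sets of libraries in the fit, a replicate block and each library left out.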

Additional observations from a re-analysis of the deposited data

Results flagged for a closer look

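The WT effect in the 4 YUMM2.1 libraries differed from that of other experiments by a direct test of the difference (edgeR, 16 libraries, adjusted p under 0.05). Against the control-hairpin libraries, 1969 genes differed as labelled and 2284 exchanged. Against aC3, 48 genes differed as labelled and 1855 exchanged.

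Among Arntl, Clock, the genes the study names and list members called exchanged, these differences passed with the libraries exchanged. Against the control hairpin, the effect was lower for Col1a1 (-3.32), Bgn (-3.18), Tgfb1i1 (-1.71), Fstl1 (-1.04), Klf4 (-1.44), Snai2 (-1.20), Dbp (-1.08), Nr1d2 (-1.06), Fn1 (-0.66) and Axl (-0.31), and the difference was 0.613 for Sox9 and 1.53 for Sox10. Against aC3, the difference was -2.53 for Dbp, -2.08 for Nr1d1, -1.76 for Nr1d2, -2.16 for Mgp and -0.50 for Sox10. It was 0.93 for Arntl, 1.03 for Axl, 1.27 for Col1a1, 1.2 for Inhba, 4.33 for Ankrd1, 0.60 for Klf4, 0.87 for Snai2 and 0.84 for Sox9. For Lmo1 it was 6.48, from few counts. The value for Ankrd1 also rests on few counts in aC3, at 0.271 and 0.189 CPM in EV and 0.0961 and 0.105 CPM in WT. All these values are differences of log2 fold changes. In aC3 alone the log2 fold change was -0.83 for Arntl and -0.55 for Axl, both called lower with WT. Exchanged, it was 0.10 for Arntl and 0.48 for Axl, and neither passed.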

How the results depend on the processing

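As labelled, the count of 0 genes was 1 with DESeq2's Wald test, 24 with no filter on low counts, 2 with a replicate block (Gm14036 and Hist1h2ap) and 0 to 1 with a library left out, the 1 being Hist1h2ap without EV.1. Exchanged, the count of 101 was 265 with the Wald test (207 higher, 58 lower), 958 with no filter, 1391 with the 4 libraries only, 230 in one fit of all 40 libraries and 6 to 19 with a library left out. The replicate block gave 81 exchanged, 76 of them among the 101. In that fit WT.1 and EV.2 took each other's number as well as group, so it does not adjust for the numbers in the titles. With the control hairpin, the 3308 genes became 1793 to 2519 with a library left out, and fell by over 1.5 times without EV 1 (1925), EV 2 (1973) or WT 2 (1793). The difference from the control hairpin ranged from 1179 to 3358 as labelled, at its ends without WT.1 and EV.1, and from 1651 to 1881 exchanged. The difference from aC3 as labelled was 342 with no filter and 306 with the replicate block, and 249 without EV.1, 285 without EV.2, 77 without WT.1 and 31 without WT.2. Exchanged it was 1109 to 1612, lowest without EV.1 (1109) and EV.2 (1143). The cause of these shifts was not tested, beyond the fewer libraries in a fit.

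Replicate numbers are shared across groups, but no source says what a number shares and there are only 2 pairs, so the block was not used in the reported fits. Same-numbered deviations correlated as labelled at 0.378 between EV and WT, 0.393 between EV and dHLH and 0.181 between WT and dHLH. Exchanged, with WT.1 and EV.2 also taking each other's number, the values were -0.0414, 0.192 and -0.151. The exchanged values therefore do not follow the numbers in the titles and do not measure an effect of those numbers. With 2 libraries per group, genes near 1 CPM rest on few counts, and no reading could be checked against the construct itself. Of the named genes' values under alternatives, none reversed a call. As labelled 9 gained a call and exchanged 116 lost one and 11 gained one.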
